A study of Mus musculus with 4 samples.

Results

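The keratin genes of the mouse host were examined in tumours grown from MDA-MB-231, a cell line of human triple-negative breast cancer. They were taken as every array feature whose platform annotation gave a single gene symbol made of Krt, a number and at most 1 letter. This gave 48 features for 40 of the 19087 genes that the arrays measured by name. Of these 40 genes, 32 had 1 probe and 8 had 2, and 14 further mouse genes of the same naming pattern were not analysed here. The tumours grew in immunodeficient mice whose strain, sex and age the labels do not give. Total RNA of each sample (0.5 µg, RIN number 9) was labelled with Cy3 and hybridised to a mouse expression array. The treated group held 2 samples of mice that received sunitinib at 40 mg/kg/day, and the control group 2 samples of mice that received vehicle. Sunitinib blocks receptor tyrosine kinases such as those for VEGF and PDGF. The series title speaks of treatment withdrawal, and the labels do not say when the tumours were taken relative to the last dose. All 4 samples come from tumours that contain human carcinoma cells beside mouse host cells, so that a mouse probe can read a human transcript that binds to it. The probe sequences that could part these sources were not used here.

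Keratins build the intermediate filaments of epithelial cells as obligate pairs of a type I and a type II chain. Simple epithelia use keratin 8 with keratin 18, basal cells of stratified epithelia use keratin 5 with keratin 14, their suprabasal cells change to keratin 1 with keratin 10, and the hair follicle has its own set, whose shaft chains are rich in cysteine. Carcinomas keep many keratins of the epithelium they came from, and MDA-MB-231 is known as a mesenchymal-like line in which vimentin is abundant. Stroma of a xenograft, by contrast, consists of fibroblasts, vessels and immune cells, which use vimentin rather than keratins. The genes were grouped as simple (5 genes), basal (4), suprabasal of epidermis or mucosa (11), hair, with shaft, inner root sheath and companion layer (15), and other (5). Of the 40, 21 lie on chromosome 11 and 19 on chromosome 15, and Krt18 is a type I gene that lies beside Krt8 in the type II cluster of chromosome 15.

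Most keratin probes read within the range of the dim features. Signals are the deposited log2 values, and a probe is called bright here when its mean over the 4 arrays exceeded the upper quartile of all 45220 features, 9.48, and in the background range otherwise. Of the 40 genes, 4 were bright on this scale, namely Krt18, Krt13, Krt7 and Krt17, while 37.9% of all genes were bright. The other 44 keratin features had means of 8.41 to 9.27, against a median of 8.87 and a 5th percentile of 8.55 over all features. Krt17 (mean 9.69) was the bright gene nearest to the threshold and Krt10 (9.27) the nearest below it. Detection flags were not used here, so that background range describes a signal and does not show that a transcript was absent. The range is wide, and the median over all genes, 9.08, lies in it. In such tumour samples, fewer cells of a type and less RNA per cell cannot be told apart, and signals of different probes depend on each probe and are not read as amounts of one gene against another.

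**Figure D1:**
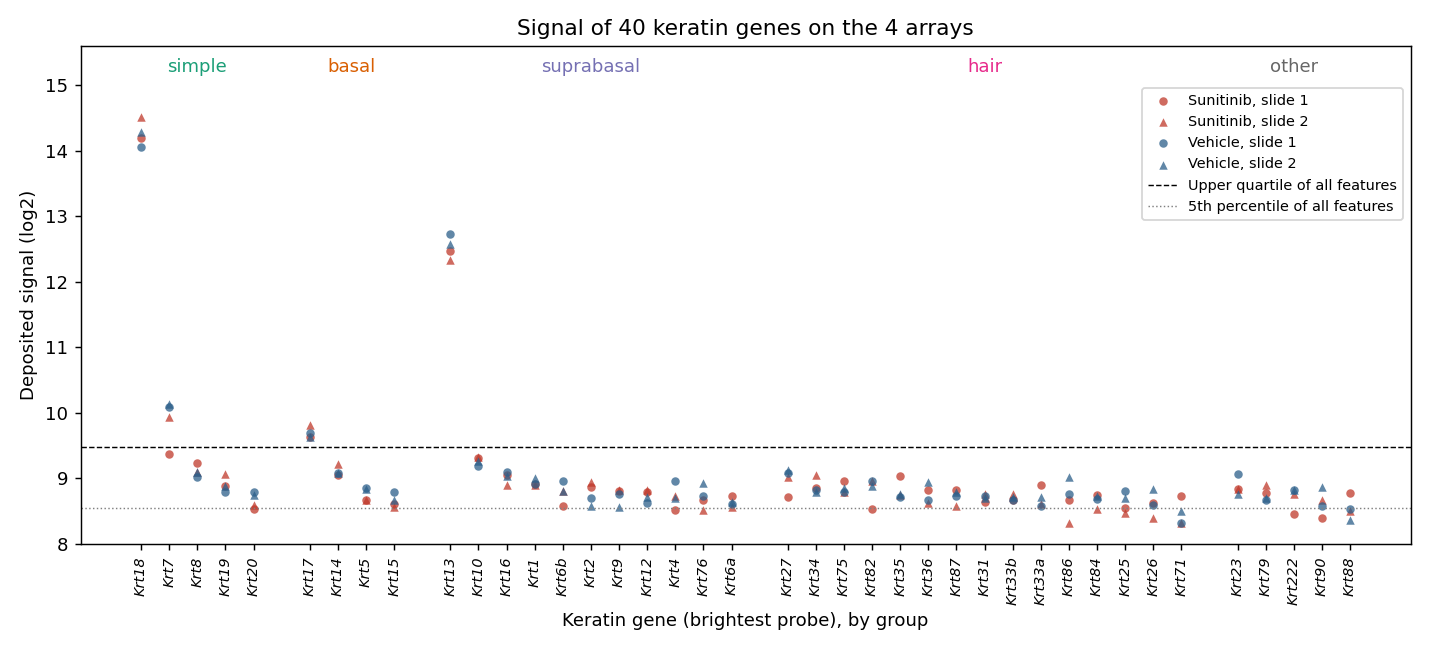
Deposited log2 signal (vertical axis) of the brightest probe of each of the 40 keratin genes (horizontal axis, by group) on the 4 arrays; red marks sunitinib, blue vehicle, circles slide 1 and triangles slide 2. Krt18 sits above 14 and Krt13 above 12 on every array, Krt7 and Krt17 near 10, and the other 36 genes lie in the band of the dim features.

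The promoters of the bright keratins were looked at beside that of Krt8, the filament partner of Krt18. Krt8 and Krt18 are neighbours, of which Krt18 was bright and Krt8 in the background range. No promoter was at hand for the bright gene Krt17, so those of Krt18, Krt8, Krt13 and Krt7 are shown. Each is the 250 bases before the annotated start, 5′ to 3′ on the gene's strand, from RefSeq in build GRCm38.p6, where Krt18 is at chr15:102027966-102028215 (plus strand), Krt8 at chr15:102004343-102004592 (minus), Krt13 at chr11:100121567-100121816 (minus, the outer of 2 annotated starts) and Krt7 at chr15:101412153-101412402 (plus). Capitals mark 4 motifs found by search. TATAA and ATAAA, which overlap in the TATA box consensus, were sought on the gene's strand in the 50 bases before the start. GGGCGG (the Sp1 core) and TGANTCA, where N is any base, were sought on both strands in all 250 bases. TGANTCA is looser than the AP-1 site, which has C or G in the middle.
Krt18: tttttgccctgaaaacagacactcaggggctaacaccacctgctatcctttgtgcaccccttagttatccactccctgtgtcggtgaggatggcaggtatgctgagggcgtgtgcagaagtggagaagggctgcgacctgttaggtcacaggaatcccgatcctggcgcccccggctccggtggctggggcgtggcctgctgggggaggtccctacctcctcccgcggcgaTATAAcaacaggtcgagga
Krt8: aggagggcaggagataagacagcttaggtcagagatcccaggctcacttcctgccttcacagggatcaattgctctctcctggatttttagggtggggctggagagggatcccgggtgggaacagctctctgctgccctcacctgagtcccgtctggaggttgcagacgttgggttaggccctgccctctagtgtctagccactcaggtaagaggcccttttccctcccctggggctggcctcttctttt
Krt13: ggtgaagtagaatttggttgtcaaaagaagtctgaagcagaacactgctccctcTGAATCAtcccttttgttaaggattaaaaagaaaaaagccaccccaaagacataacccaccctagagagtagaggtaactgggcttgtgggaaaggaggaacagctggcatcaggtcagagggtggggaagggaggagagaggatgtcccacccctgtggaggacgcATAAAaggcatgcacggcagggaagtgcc
Krt7: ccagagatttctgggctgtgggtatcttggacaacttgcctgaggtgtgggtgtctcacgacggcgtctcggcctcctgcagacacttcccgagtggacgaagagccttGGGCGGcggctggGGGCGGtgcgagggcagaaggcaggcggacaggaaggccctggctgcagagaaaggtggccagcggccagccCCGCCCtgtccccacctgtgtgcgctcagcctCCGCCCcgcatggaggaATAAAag

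Promoters were at hand for 26 of the 40 keratins. Of these 26 genes, 22 held TATAA or ATAAA in the 50 bases before the start, in any window listed for the gene. Over all 32851 promoter windows, each counted singly, the share was 8.72%, so the units differ, here and for the motifs below. Krt18 carried TATAA 19 bases before its start and Krt13 carried ATAAA 29 bases before its own. The ATAAA of Krt7 began 7 bases before its start. Krt8 held none of the 4 motifs in the printed window, but a TATA-like match began 1 base before its annotated start and ran across it, and with the 50 bases after the start included 24 of the 26 keratins and 12.5% of all windows had one. The Sp1 core was found in 2 of the 26 keratins, Krt7 and Krt75, against 32.7% of all windows. The looser letters TGANTCA were found in 1, Krt13, against 6.75%, and the printed Krt13 match has A in the middle, unlike the AP-1 site. A match describes these letters and shows no binding. The bright and the dim keratins shared the TATA-like letters, with Krt18, Krt13 and Krt7 on one side and hair keratins such as Krt25, Krt31 and Krt71 on the other. These letters describe the mouse genes only. Whether the bright signals came from mouse or human transcripts was not tested.

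Sunitinib and vehicle tumours were then compared, gene by gene, to ask whether any keratin differed between the groups. No keratin passed: limma gave 0 of 40 genes with an adjusted p under 0.05, where 0.00524% of all genes (1 of 19087) passed, and the smallest adjusted p among keratins was 0.362. At an unadjusted p under 0.05, 1 keratin was higher (Krt2) and 1 lower (Krt25) with sunitinib, beside 8.02% of all genes higher and 5.93% lower. Both sunitinib arrays lay above both vehicle arrays for 6 keratins and below them for 10, while over all genes the shares were 25.9% and 22.3%. All 40 differences lay between -0.46 (Krt7) and 0.27 (Krt2) on the log2 scale, with a median of -0.05, against a median of 0.005 for all genes. Both slides carried 1 array of each group, and the keratin median was 0.00 on slide 1 and -0.07 on slide 2. With sunitinib 9 keratins were higher on both slides and 12 lower on both, beside 32.0% and 27.9% of all genes, and the sign differed, or 1 slide gave no difference, for the other 19. With 2 arrays a group, an exact two-sided permutation test of a single gene cannot give less than p = 0.333. Whether replicates were separate mice is not in the labels, and the p-values then reflect only how these arrays scatter, which may be technical.

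**Figure D2:**
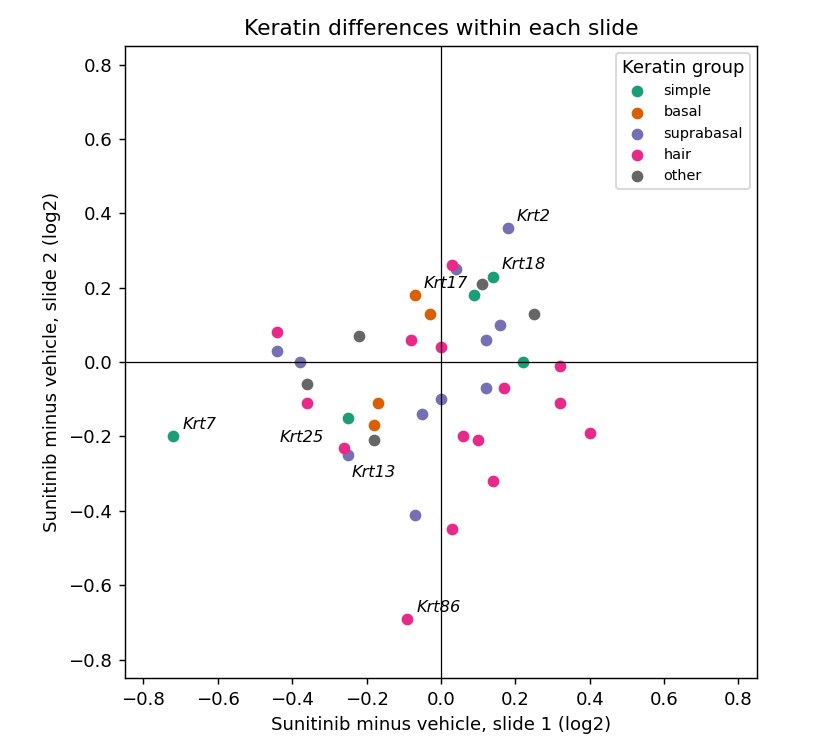
Sunitinib minus vehicle difference in deposited log2 signal on slide 1 (horizontal) and slide 2 (vertical), 1 point per keratin gene and coloured by group. Points are scattered over all 4 quadrants within 0.72 of 0, with Krt7 lowest on slide 1 and Krt86 lowest on slide 2.

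Among the simple keratins, Krt18, the type I partner of Krt8 in single-layered epithelia, was the only gene of the 40 with a signal above 14. It read 14.20 and 14.52 in the sunitinib arrays (replicates 1 and 2) and 14.06 and 14.29 in the vehicle arrays. The groups overlapped, and within each group the array on slide 2 read higher than that on slide 1. The difference was 0.18 (SE 0.15, n = 2 per group, 95% interval -0.21 to 0.58, limma adjusted p = 0.591), with 0.14 on slide 1 and 0.23 on slide 2. Leaving out 1 array moved it between 0.03 and 0.34. Krt8, the type II chain with which keratin 18 forms filaments, stayed in the background range as defined above on both of its probes. Its brighter probe, at percentile 65.9 of all features, read 9.23 and 9.09 under sunitinib and 9.01 and 9.09 under vehicle. Its second probe, at percentile 23.6, read 8.71 and 8.54 against 8.70 and 8.85. The probes of this gene differed in sign (0.11 and -0.15), and neither passed.

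Krt7, a type II keratin of ducts and glands, was bright on 1 of its 2 probes. That probe read 9.36 and 9.93 with sunitinib and 10.08 and 10.13 with vehicle, so that both sunitinib arrays lay below both vehicle arrays. Its difference of -0.46 (SE 0.20, n = 2 per group, limma adjusted p = 0.407) was the largest in size of the 40 keratins, and it was -0.72 on slide 1 and -0.20 on slide 2. Without sunitinib replicate 1 the difference shrank to -0.18. The second Krt7 probe, designed on another transcript, went the other way, with 9.08 and 8.95 against 8.80 and 8.70 (difference 0.27, SE 0.09, limma adjusted p = 0.365 over all features), and the mean of both probes differed by -0.10. Krt19, which many ducts express, read 8.88 and 9.06 under sunitinib and 8.79 and 8.88 under vehicle. Krt20, a keratin of gut epithelium and Merkel cells, read 8.53 and 8.59 against 8.78 and 8.74, and its groups did not overlap (difference -0.20, limma adjusted p = 0.389), with all 4 values in the background range. The median difference of the 5 simple genes was 0.11, and -0.02 when the probes of a gene were averaged.

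Among basal keratins only Krt17 was bright. Krt17, which marks hair follicle and wounded epidermis as well as basal cells of ducts, read 9.62 and 9.81 with sunitinib and 9.69 and 9.63 with vehicle. The groups overlapped, the difference of 0.06 (SE 0.10, n = 2 per group, limma adjusted p = 0.82) was -0.07 on slide 1 and 0.18 on slide 2, and it turned to -0.04 without sunitinib replicate 2. The pair of the basal layer itself was in the background range as defined above, with Krt14 at percentile 65.9 and Krt5 at 33.7 of all features. Krt14 read 9.05 and 9.21 against 9.08 in both vehicle arrays, and Krt5, its partner, 8.67 in both sunitinib arrays against 8.85 and 8.84. Krt5 was lower on both slides, by -0.18 and -0.17, and did not pass (difference -0.17, SE 0.07, limma adjusted p = 0.401, n = 2 per group). Krt15, a keratin of basal cells and of the hair follicle bulge, read 8.61 and 8.56 against 8.78 and 8.67. The median difference of the 4 basal genes was -0.05.

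Of the suprabasal keratins, Krt13 alone was bright. Keratin 13 is the type I chain of the suprabasal layers of oral and oesophageal mucosa, where it pairs with keratin 4. Its brightest probe read 12.47 and 12.33 with sunitinib and 12.72 and 12.58 with vehicle, and the sunitinib arrays lay below the vehicle arrays by 0.25 on each slide. This difference (-0.25, SE 0.10, n = 2 per group, 95% interval -0.51 to 0.01) did not pass in limma (adjusted p = 0.392). A second Krt13 probe, annotated with the same transcript, read 8.66 and 8.78 against 8.67 and 8.77, in the background range on every array and with a difference of 0.00. The bright Krt13 signal was thus seen on 1 of 2 probes, and with the mean of both the difference was -0.13. Krt4, the partner of keratin 13, was in the background range too, with 8.51 and 8.72 against 8.95 and 8.69.

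Keratins of cornifying epidermis were in the background range as defined above, though Krt10 lay at percentile 70.6 of all features. Krt10 read 9.30 and 9.32 under sunitinib and 9.18 and 9.26 under vehicle, and its partner Krt1 8.91 and 8.90 against 8.91 and 9.00. Krt2, a type II keratin of the upper epidermis, read 8.87 and 8.94 against 8.69 and 8.58. It had the smallest p of the 40 keratins (difference 0.27, SE 0.09, limma adjusted p = 0.362, n = 2 per group), and its second probe also read higher with sunitinib (8.62 and 8.73 against 8.48 and 8.49, difference 0.19). Krt76, an oral keratin, read 8.66 and 8.51 against 8.73 and 8.92, a difference of -0.24 that was -0.07 on slide 1 and -0.41 on slide 2. The stress keratins of wounded epidermis had small differences as well, -0.09 for Krt16, -0.19 for Krt6b and 0.03 for Krt6a, as did the palm and sole keratin Krt9 (0.15) and the cornea keratin Krt12 (0.13). The suprabasal median was -0.05, with 4 of the 11 genes higher and 3 lower on both slides.

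No hair keratin was bright: the 15 genes had mean signals of 8.46 (Krt71) to 8.98 (Krt27). Their median difference was -0.06, with 0.03 on slide 1 and -0.11 on slide 2, and 1 gene was higher and 3 lower on both slides. Krt25, an inner root sheath keratin, read 8.54 and 8.47 under sunitinib and 8.80 and 8.70 under vehicle (difference -0.24, SE 0.09, n = 2 per group, limma adjusted p = 0.372). All 4 values were below the median of the features on their arrays, 8.89 or 8.90. Krt86, a type II chain of the hair shaft, read 8.67 and 8.32 against 8.76 and 9.01, a difference of -0.39 that was -0.09 on slide 1 and -0.69 on slide 2. Krt27, another inner root sheath keratin, read 8.71 and 9.01 against 9.07 and 9.12 (-0.23). Leaving out 1 array moved Krt86 between -0.57 and -0.21 and Krt27 between -0.38 and -0.09. The shaft keratins Krt31, Krt33b and Krt84 differed by -0.01, 0.02 and -0.07. A dimmer second probe of Krt33b had the smallest p of all 48 keratin features (difference -0.40, limma adjusted p = 0.357 over all features). It read 8.16 and 8.27 under sunitinib, below the 5th percentile of those arrays (8.48 and 8.49), against 8.61 and 8.62 under vehicle. The brighter Krt33b probe gave 8.67 and 8.75 against 8.67 and 8.71, so that the probes of this gene did not show the same difference.

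The 5 other keratins were in the background range. Krt79, a type II keratin of the follicle opening and sebaceous duct in mice, read 8.77 and 8.90 under sunitinib and 8.66 and 8.69 under vehicle (difference 0.16). Krt222 read 8.45 and 8.76 against 8.81 and 8.82 (-0.21), and Krt88 8.77 and 8.49 against 8.52 and 8.36 (0.19). Leaving out 1 array moved Krt222 between -0.36 and -0.06 and Krt88 between 0.05 and 0.33. Krt23 and Krt90 differed by -0.08 and -0.20, and the median of the 5 genes was -0.08. Among the 8 keratins with 2 probes, the differences had the same sign for Krt1, Krt2 and Krt10 (3 genes) and opposite signs for Krt7, Krt8, Krt33b and Krt36 (4 genes), and for Krt13 the second probe differed by 0.00. Keratin genes of close sequence, such as Krt6a and Krt6b, Krt33a and Krt33b, or Krt14, Krt16 and Krt17, can share signal on an array, and their values are uncertain to that extent.

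Marker lists were set beside the keratins to describe which tissues the arrays read. Of 28 epidermal differentiation genes 3 were bright, of 24 hair follicle genes 3, and of the sebaceous gland (9) and mammary secretion (10) genes none. The bright epidermal genes were Sprr2a1 (mean 14.71) and Rptn (10.46), described further below, and Sbsn (9.48), which lay at the threshold. Rptn passed the threshold only through the sunitinib arrays (mean 12.35), and its vehicle mean was 8.56. Loricrin (Lor, mean 8.68) and involucrin (Ivl, 8.57), envelope proteins of the cornified layer named after their values were seen, were in the background range. Lce3c, another envelope gene, read 9.05 and 8.90 under sunitinib and 8.76 and 8.53 under vehicle. Of the keratin-associated proteins of the hair shaft, Krtap5-4 was bright, with 10.52 and 10.53 against 10.69 and 10.38 and groups that overlapped, while Krtap6-1, named after its values were seen, was in the background range (mean 8.73). Lalba, the milk protein alpha-lactalbumin, read 8.97 and 8.94 under sunitinib and 8.71 and 8.78 under vehicle, all in the background range. The median level over the 28 epidermal genes was 8.90 and 8.86 in the sunitinib arrays and 8.74 and 8.85 in the vehicle arrays. Of 34 genes of epithelial junctions and their regulators 5 were bright, among them Sfn, the epithelial protein 14-3-3 sigma, with 13.10 and 13.03 against 12.68 and 12.86. The next brightest, the integrin chain Itga6, which vessels also express, read 12.38 and 11.82 against 10.81 and 11.71. The other bright members were Epcam (mean 10.07), Itgb4 (9.75) and Evpl (9.55). The smallest p values of this list belonged to Perp and Lamb3. Perp, a desmosomal protein, read 8.43 and 8.32 against 8.83 and 8.77 (difference -0.43). Both sunitinib values of Perp were below the 5th percentile of their arrays (8.48 and 8.49). Lamb3, a laminin chain of the epidermal basement membrane, read 9.23 and 9.25 against 9.82 and 9.58 (-0.46), and neither gene passed (limma adjusted p = 0.362 for each, n = 2 per group).

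By contrast, all 10 fibroblast genes, all 8 measured macrophage genes and 9 of 10 endothelial genes were bright, with medians of 13.85, 13.13 and 10.98. Vimentin (Vim), the intermediate filament of mesenchymal cells, read 15.99 to 16.01 on every array, which is saturated, so that no difference can be read from it. Lmna, the gene of the nuclear lamins A and C, was bright with 13.69 and 13.60 against 13.81 and 13.62, and its groups overlapped. Bfsp2, a filament protein of the eye lens, was in the background range with 8.90 and 8.86 against 8.58 and 8.59. Gfap, the filament of astrocytes, was also in the background range and had the smallest p of its list (9.10 and 9.33 against 8.77 and 8.68, difference 0.49, limma adjusted p = 0.362, n = 2 per group). Of 12 skeletal muscle genes 2 were bright, and of 9 measured adipocyte genes 6. Of these 6, Fabp4 and Lpl had means above the threshold for bright probes in both groups. Adipoq, Cidec, Plin4 and Car3 had vehicle means below that threshold, at 8.99, 9.07, 9.11 and 9.18. Their sunitinib means were 11.32, 11.13, 11.37 and 11.8, so they counted as bright only through the sunitinib arrays. The adipocyte genes had a median difference of 1.19 and the 10 fibroblast genes one of -0.36, with 0 genes of either list past the threshold in limma. The fibroblast median was -0.19 when the probes of a gene were averaged and -0.55 without vehicle replicate 2, and it includes Col1a2, saturated on every array, and Col1a1 and Col3a1, which lay at or close to saturation. In the fit used here 1 gene passed. With the slide as a block, with a block of crossed numbers or with the mean of a gene's probes 0 genes did. With median centring 2 genes passed, and 3 with a trended robust prior. The gene that passed in the fit used here was Xist, the RNA that coats an inactive X chromosome (limma adjusted p = 0.0149, n = 2 per group). Xist read 12.19 and 12.26 under vehicle but 8.97 and 8.96 under sunitinib. Every comparison here is therefore also one between arrays with a bright Xist signal and arrays with Xist in the background range. The part of these differences in the keratin values was not tested.

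**Figure D3:**
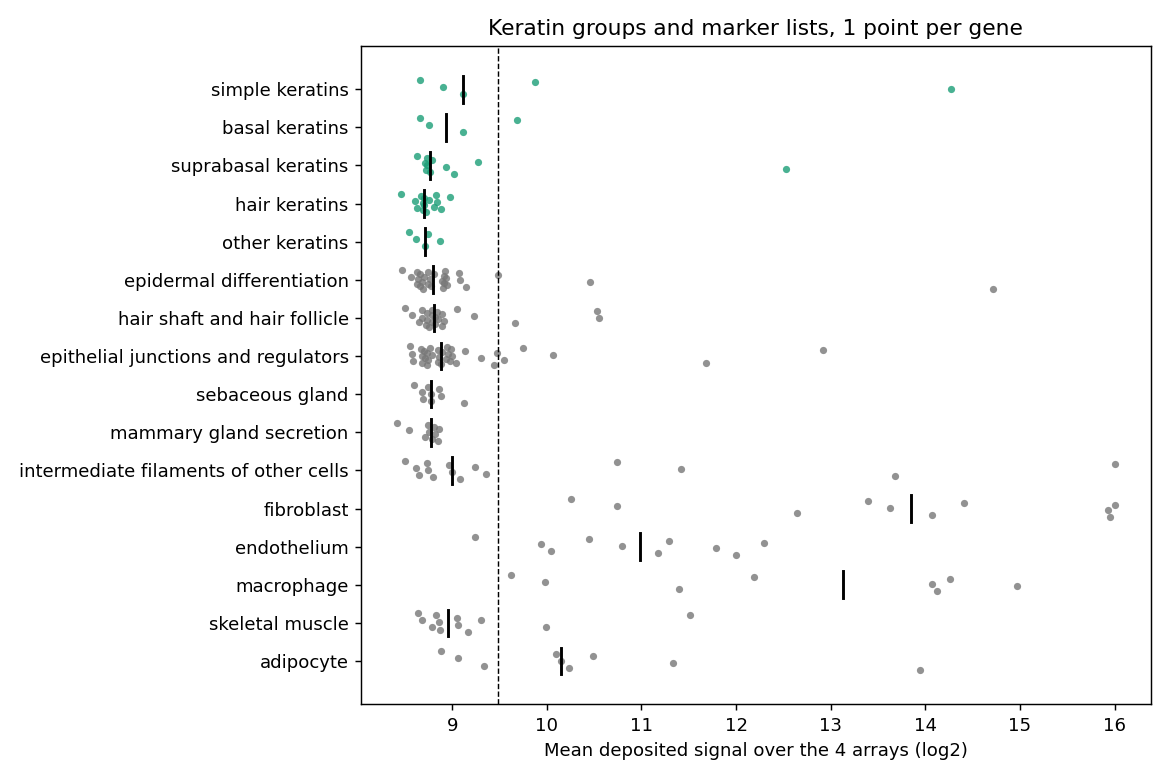
Mean deposited log2 signal over the 4 arrays (horizontal axis) for each gene of the 5 keratin groups (green) and of 11 marker lists (grey); black bars are medians and the dashed line is the upper quartile of all features, 9.48. Most genes of the keratin groups and of the skin and mammary lists lie below the line, while all fibroblast and macrophage genes and 9 of 10 endothelial genes lie above it.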

How the data were processed

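RNA from 4 samples of xenograft tumours was hybridised to Cy3 arrays, per the labels, which do not say whether the samples came from separate mice. The values the authors deposited, 1 for each feature on each array, are on a log2 scale, as their range (6.75 to 16.34) shows. Per the submitters' processing notes limma was used, with no version named. How background was corrected and arrays were normalized is not given in the sources used here. Quartiles were nearly equal across arrays (lower 8.70 or 8.71, upper 9.47 to 9.49), so the values were used as deposited. With 4 arrays, their number limits the precision.

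Gene names came from the platform table with symbols updated in RefSeq GRCm38.p6 (99.6% of 33653 features with 1 gene matched). Of the rest, 56 had several genes and 11511 were not listed, and these were tested unnamed. Spots in 8 or more copies (217 probes) were combined by their median, and each gene was read from its brightest probe. Sunitinib was compared with vehicle by lmFit and eBayes in limma 3.58.1 (R 4.3.3) over 30654 tested values, adjusted by Benjamini-Hochberg with a threshold of 0.05. Values of second probes come from a fit over all features. Shares of all genes are over 19087 genes. A value of 15.95 or more counted as saturated. The fits were also run on data simulated with the spread that limma had fitted, which cannot show how well the model holds for these arrays.

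Per the array titles, both replicates 1 shared slide 1 and both replicates 2 shared slide 2, with vehicle as array 1 and sunitinib as array 2 of each, so the array's number on the slide and the treatment cannot be told apart. Deviations from the group means correlated at -0.225 on shared slides. This value is the same for both slides by construction, because with 2 arrays a group the deviations of the replicates mirror each other. The differences within slides are therefore given as description and not as matched pairs. The alternatives were the slide as a block, quantile normalization, median centring, a filter at the 30th percentile, the mean of a gene's probes, a floor at the 5th percentile, a trended robust prior, every feature as its own probe, leaving out each array and, added after the data were seen, a block with crossed numbers. Per-array values are given for bright keratins and the 3 of smallest p per group, and for the 2 brightest and the 2 of smallest p of the epidermal, hair follicle, junction and filament lists, while most other marker lists are given by counts and medians. Keratins and list genes named beyond this were chosen after their values were seen. The members and lists were chosen with earlier results of these data known.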

Additional observations from a re-analysis of the deposited data

How the results depend on the processing

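No keratin passed under any of the 13 alternatives, where the smallest adjusted p of a keratin was 0.303 (trended robust prior) to 0.625 (without vehicle replicate 1). With the slide as a replicate block, 0 keratins were higher and 0 lower at an unadjusted p under 0.05, and in this fit 1 residual degree of freedom was left in place of 2. Lower keratins at that p were 0 with dim probes left out, 2 with the mean of all probes, with the trended robust prior and with the crossed block, and 3 with the floor. Without 1 array, 0 or 1 was higher and 0 to 4 lower, with 4 without sunitinib replicate 2. The block and the crossed block left every difference as it was.

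With dim probes left out 21 keratins remained, and the median became 0.05 for all keratins and for basal keratins and 0.042 for the other keratins. With the mean of all probes the simple median turned from 0.11 to -0.02. Without 1 array the median ranged from -0.058 to -0.012 over all keratins, from 0.025 to 0.15 for simple, -0.077 to -0.017 for basal, -0.06 to -0.005 for suprabasal, -0.085 to 0.005 for hair and -0.07 to 0.075 for other keratins. The cause of these shifts was not tested. Of the differences of single keratins named by rule, the one that turned its sign was Krt17, at -0.04 without sunitinib replicate 2. Signals near the floor compress differences, so that small changes of the 36 dim keratins could go undetected.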

Other observations

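Among the epidermal differentiation genes, 2 with bright probes varied far more between arrays than any keratin. Rptn, the gene of repetin in the cornified envelope, read 14.69 and 10.01 under sunitinib and 7.87 and 9.25 under vehicle (difference 3.79, SE 1.62, n = 2 per group, limma adjusted p = 0.401). Most of this lay on slide 1, at 6.82 against 0.76 on slide 2, and the value of 7.87 is below the 5th percentile of its array (8.48). Sprr2a1, a small proline-rich envelope protein that other epithelia and stressed cells also express, read 14.71 and 13.41 under sunitinib and 15.25 and 15.48 under vehicle (difference -1.30, SE 0.44, limma adjusted p = 0.369, n = 2 per group). Krt1 and Krt10, the keratins of the layers in which repetin and small proline-rich proteins are made, were in the background range on the same arrays. In the hair follicle list, Sox21, a transcription factor of the hair cuticle, read 9.78 and 9.98 against 9.40 and 9.49, and Cux1, which many tissues express, 10.33 and 10.35 against 10.77 and 10.74, and neither passed (limma adjusted p = 0.362 for each, n = 2 per group).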
